A study of Saccharomyces cerevisiae with 24 samples.

Results

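Gene-level ribosomal occupancy of unstressed yeast was compared between cultures that received cycloheximide at x1/64, x1/16, x1/4, x1 or x8 and cultures that received none. The libraries were chosen by their labels alone, and they are 8 of the 24 libraries of the series: 5 with the drug and 3 without. All came from Saccharomyces cerevisiae strain BY4741, a laboratory haploid of mating type a with marker mutations in the HIS3, LEU2, MET17 and URA3 genes, grown in rich medium (YPD) at 30°C without any stress. The dose x1 is 100 µg/ml, so the series ran from 1.56 µg/ml at x1/64 over 6.25, 25 and 100 to 800 µg/ml at x8, the last from a stock in DMSO. Cycloheximide was added to the growing cultures just before harvest, and the cells were then filtered over 5 min. The drug-free cultures were filtered in the same way. Values of the replicate libraries at x100 (1e+04 µg/ml) are given beside them. Those cells were filtered first, resuspended in a small volume of YPD and only then mixed with the drug. At x100 the handling therefore changed together with the dose. The 3 drug-free libraries differ in their lysate: 1 was handled like the treated ones, 1 had edeine in the lysis buffer, which blocks the joining of ribosomal subunits, and 1 had aurintricarboxylic acid, which keeps proteins from binding RNA. The aurintricarboxylic acid lysate was also handled in another order, since it went onto the gradient undigested and RNase was applied only to the pooled monosomes and polysomes after a change of buffer, so this control differs in its preparation too. The lysis buffer of all 8 held cycloheximide at 100 µg/ml, so drug-free refers to the culture medium. Each condition is 1 library from 1 culture, so the doses stand in for replicates, and a dose cannot be told apart from the culture it was given to.

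Cycloheximide binds the large ribosomal subunit and halts translocation, and it is added before harvest so that ribosomes stay where they are on the mRNA. Footprints, the mRNA pieces that a ribosome shields from RNase, are then sequenced, and their density over a reading frame is a measure of how many ribosomes the gene carried. Yeast removes the drug through ABC transporters of the plasma membrane, of which Pdr5 is the best known, under the control of the transcription factors Pdr1 and Pdr3. The level of a gene is given as RPKM, reads per kilobase of reading frame scaled to the reads of the library, and genes were compared on the log2(RPKM + 1) scale, which understates the change of genes of low level. RPKM are shares of a library, and with footprints alone a difference in mRNA level and a difference in translation cannot be told apart.

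The depth recovered from the RPKM steps was 27.9 M reads for the untreated-lysate control, 2.55 M with edeine, 6.94 M with aurintricarboxylic acid, 2.03 M at x1/64 and 6.05 to 8.50 M at the other doses. The x1/64 library is the shallowest of the 8 and the only one made with primer set 2, and it stood apart. Across the 3920 genes tested, which averaged 10 RPKM or more over the 8 libraries, its correlation with the other 7 libraries was 0.920 to 0.937, whereas the highest correlation of each of those 7 with another library was 0.981 to 0.993. The genes called and some list medians are therefore given with and without it. The counts of list members that lie above or below all controls include it. The strain markers matched the labels, since LEU2, MET17 and URA3 were listed at 0 in all 8 libraries. HIS3, of which BY4741 carries a partial deletion, had 53.4 to 124 RPKM. STE2, the receptor that mating type a cells carry for alpha factor, had 80.3 to 181 RPKM.

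The drug itself was visible in the average occupancy profile of long genes in all 5 treated libraries. The start-codon peak, the highest occupancy between nt -20 and 30 relative to the mean of the last 300 nt, was 1.79, 2.05 and 1.76 in the drug-free libraries with an untreated lysate, edeine and aurintricarboxylic acid. With the drug it was 8.95, 7.39, 6.65, 6.06 and 7.13 from x1/64 to x8. The groups did not overlap, and the log2 values differed by 1.94 (2.84 ± 0.21, SD, n = 5, against 0.90 ± 0.12, SD, n = 3; exact two-sided permutation test, p = 0.0357). The broad peak, the mean occupancy from nt 31 to 200, was 1.38, 1.76 and 1.47 without drug and 2.11, 3.32, 3.11, 2.16 and 1.88 with it. It differed by 0.68 on the log2 scale (exact two-sided permutation test, p = 0.0357), and p = 0.0357 is the smallest value that 3 libraries against 5 can give.

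**Figure D1:**
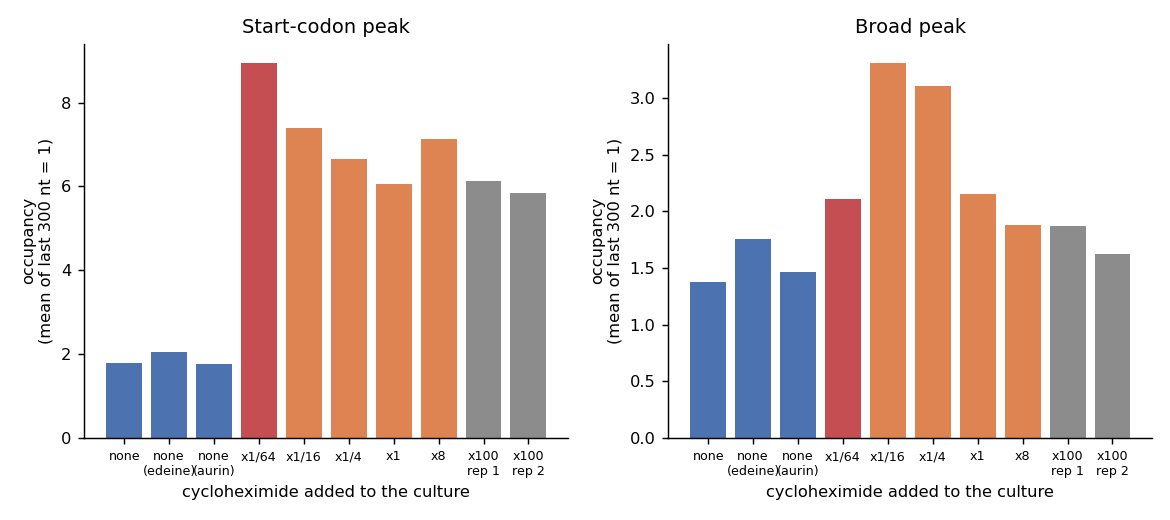
Start-codon peak (left) and broad peak (right) of the average occupancy profile in each unstressed library, in units of the mean occupancy of the last 300 nt. Bars are single libraries, blue without drug, red for x1/64 (primer set 2), orange for x1/16 to x8 and grey for the x100 replicates. All 5 treated libraries from x1/64 to x8 lie above the 3 drug-free ones in both panels.

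Single genes did not follow at the level of a statistical call. None of the 3920 genes passed an adjusted p of 0.05 in drug against drug-free (0% called, limma with Benjamini-Hochberg adjustment, smallest adjusted p 0.169), and none did after centring, that is after the median of the tested genes was subtracted in every library (smallest adjusted p 0.131). At an unadjusted p under 0.05 there were 456 genes as deposited and 520 after centring. The median gene differed by 0.06 (log2) as deposited and by -0.03 after centring. In both scalings all 5 treated values lay above all 3 drug-free values for 114 genes (2.91%) and below them for 166 (4.23%). Since no gene met the rule for naming, the genes described below are members of functional lists or were chosen after their values were seen.

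Leaving out the x1/64 library changed this result. Among the 7 libraries of primer set 1, 1 gene of 3920 was called as deposited (0.0255%), the reading frame YCL042W, and 12 genes were called after centring (0.306%), 11 higher and 1 lower. The 11 were YCL042W, YPR145C-A, PDR15, FMP23, FRE5, PEX17, CMC4, YOL159C-A, PRM4, PDR5 and INO4, and the lower one was SED1, which encodes an abundant cell wall glycoprotein. PDR5 and PDR15 are drug exporters, FRE5 is a putative iron reductase, INO4 encodes an activator of phospholipid synthesis genes and PEX17 a peroxisomal protein. The centred fit was added after the values were seen.

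YCL042W is an uncharacterized open reading frame. Its level was 28.4, 52.6 and 65.2 RPKM in the drug-free libraries and 100.8, 241, 265, 275 and 265 RPKM from x1/64 to x8. The groups did not overlap and the 4 doses from x1/16 upward were nearly equal. The fitted difference was 2.21 ± 0.37 (log2, SE; limma adjusted p = 0.169) over 8 libraries and 2.48 ± 0.24 (adjusted p = 0.00568) without x1/64. In the RefSeq annotation of assembly R64 the last 106 nt of YCL042W overlap the start of GLK1, the glucokinase gene, on the same strand. Reads near the GLK1 start codon lie within both annotated frames. The RPKM steps fit frames shortened by 100 nt, at an end that is not given, so such reads need not be counted for both genes. GLK1 itself had 65.0, 71.7 and 146 RPKM without drug and 84.3, 134, 212, 126 and 157 RPKM with it, so its groups overlapped. At x100 YCL042W had 41.9 and 33.1 RPKM and GLK1 had 51.0 and 39.5 RPKM. Of the 8 tested frames that hold the start of another frame of the same strand, 1 lay above all drug-free values, YCL042W, and the median centred difference of the 8 was 0.15 (log2). The frames that start within PIN2 and THO2 averaged 0 RPKM, and those within YAK1, YPT6 and RPA14 had no listed level. MRPL19, within YNL184C, averaged 58.2 RPKM and LDO16, within LDO45, 14.2 RPKM, against 125 RPKM for GLK1. The set therefore cannot show whether the start of a second frame adds reads. The share of YCL042W reads that belong to GLK1 was not tested.

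PDR5 and other exporter genes differed between doses. The 9 tested lines of the list of drug target and resistance genes had a median difference of 0.17 as deposited and 0.08 after centring, or 0.12 without x1/64. None of the 9 was called. In none did the 5 treated values clear all 3 controls, where 2.91% of all genes lay above them and 4.23% below. PDR5 had 285, 214 and 311 RPKM without drug, and 161, 514, 609, 516 and 494 RPKM from x1/64 to x8. The level at x1/64 was below every control, and the other 4 doses were all above every control. PDR15, a close relative of PDR5, had 5.83, 3.94 and 9.98 RPKM without drug and 1.54, 20.7, 29.1, 18.9 and 22.7 RPKM with it, in the same arrangement. Over the 4 doses of primer set 1 the centred differences were 0.87 ± 0.15 (log2, SE; limma adjusted p = 0.0374) for PDR5 and 1.60 ± 0.22 (adjusted p = 0.021) for PDR15. SNQ2, another exporter of this family, had 30.3 to 36.8 RPKM without drug, 26.5 RPKM at x1/64 and 49.9 to 54.0 RPKM at the other doses. YOR1, which exports oligomycin, had 11.3 to 13.0, 12.7 and 16.7 to 20.3 RPKM in the same order.

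RPL28 encodes the large-subunit protein uL15, in which a known substitution gives resistance to cycloheximide. It had 5397, 6890 and 6587 RPKM without drug and 3307, 6404, 5987, 6584 and 6942 RPKM with it. Its treated values from x1/16 to x8 lay within or just above the controls, and its difference of -0.15 ± 0.24 (log2, SE; limma adjusted p = 0.826) became 0.05 without x1/64, or -0.07 after centring. At x100, in 2 replicate libraries of primer set 2, PDR5 had 469 and 517 RPKM and PDR15 had 11.9 and 14.3 RPKM. All 4 values are above the respective controls, as at x1/16 to x8.

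**Figure D2:**
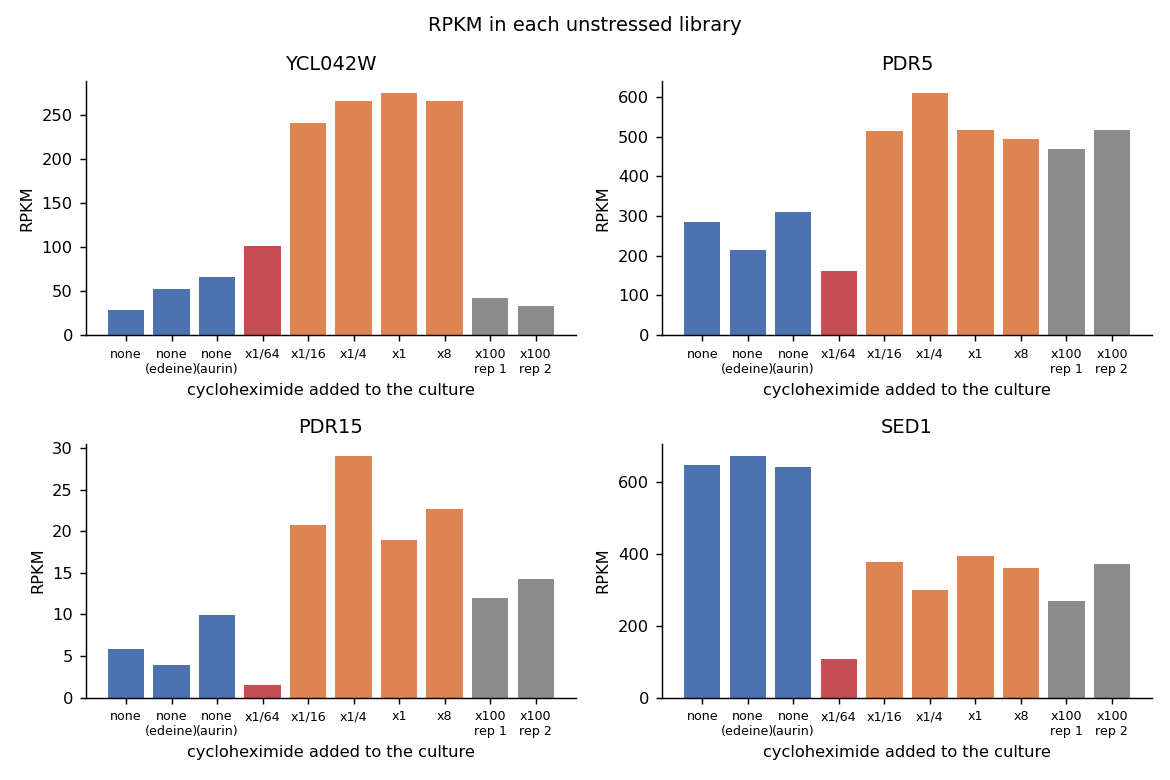
RPKM of YCL042W, PDR5, PDR15 and SED1 in each unstressed library, 1 bar per library, with blue bars for no drug, red for x1/64, orange for x1/16 to x8 and grey for the x100 replicates. PDR5 and PDR15 are highest at x1/4 (609 and 29.1 RPKM) and lowest at x1/64, and SED1 is highest in the 3 drug-free libraries.

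Of all lists, that of iron uptake and mobilization had the most members above the controls. In yeast these genes are switched on by the transcription factors Aft1 and Aft2 when iron is short. The list was drawn up after the genes' values were seen, so its count only describes it: of 29 tested genes, 17 had all 5 treated values above all controls in both scalings and none had them below, against 2.91% and 4.23% of all genes. None was called. The median difference was 1.01 (log2) as deposited and 0.92 after centring, against 0.06 and -0.03 over all genes. FIT1, a cell wall mannoprotein that helps to retain iron-loaded siderophores, had 14.6, 38.0 and 22.6 RPKM without drug and 829.6, 63.0, 380.4, 108 and 119.7 RPKM from x1/64 to x8. The groups did not overlap, yet the treated values spread over more than the gap between them, and the mean log2 levels were 7.59 ± 1.51 (SD, n = 5) and 4.60 ± 0.66 (SD, n = 3). The difference was 2.99 ± 0.74 (log2, SE; limma adjusted p = 0.333).

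FIT3 and ARN2 repeated this order of libraries. FIT3, of the same family, had 482, 771 and 849 RPKM without drug and 9181, 1062, 4878, 2047 and 2161 RPKM with it. ARN2, a siderophore transporter, had 47.3, 73.3 and 24.0 RPKM against 485, 118, 394, 138 and 156 RPKM. In both genes x1/64 and x1/4 were highest and x1/16 was the lowest dose. FRE2, a reductase that frees iron from its chelates, had under 2 RPKM in each control and 59.7, 4.62, 25.8, 2.85 and 5.49 RPKM with the drug. LSO1, a small protein known to be induced when iron is scarce, had 1.38, 4.31 and 10.3 RPKM against 133, 20.9, 126, 10.9 and 29.7 RPKM. In FRE2 and LSO1 x1/64 and x1/4 were again highest, but x1 was the lowest dose.

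The spread between the only replicate libraries of unstressed cells bears on this group. Relative to the drug-free mean, the centred list median was 1.70, 0.57, 1.14, 0.66 and 0.70 (log2) from x1/64 to x8 and -0.01, 0.32 and -0.19 in the 3 controls. In the x100 replicates, which share dose, medium and primer set, it was 0.93 and -0.02. FIT1 had 248 RPKM in the first and 23.0 RPKM in the second, and FIT3 had 3781 and 930.6 RPKM. A pair of cultures under the same treatment thus differed as much as the treated and drug-free groups did. Without the x1/64 library the list median was 0.77, and without x1/64 and x1/4 it was 0.66. Whether the drug or the state of each culture sets these levels was not tested.

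**Figure D3:**
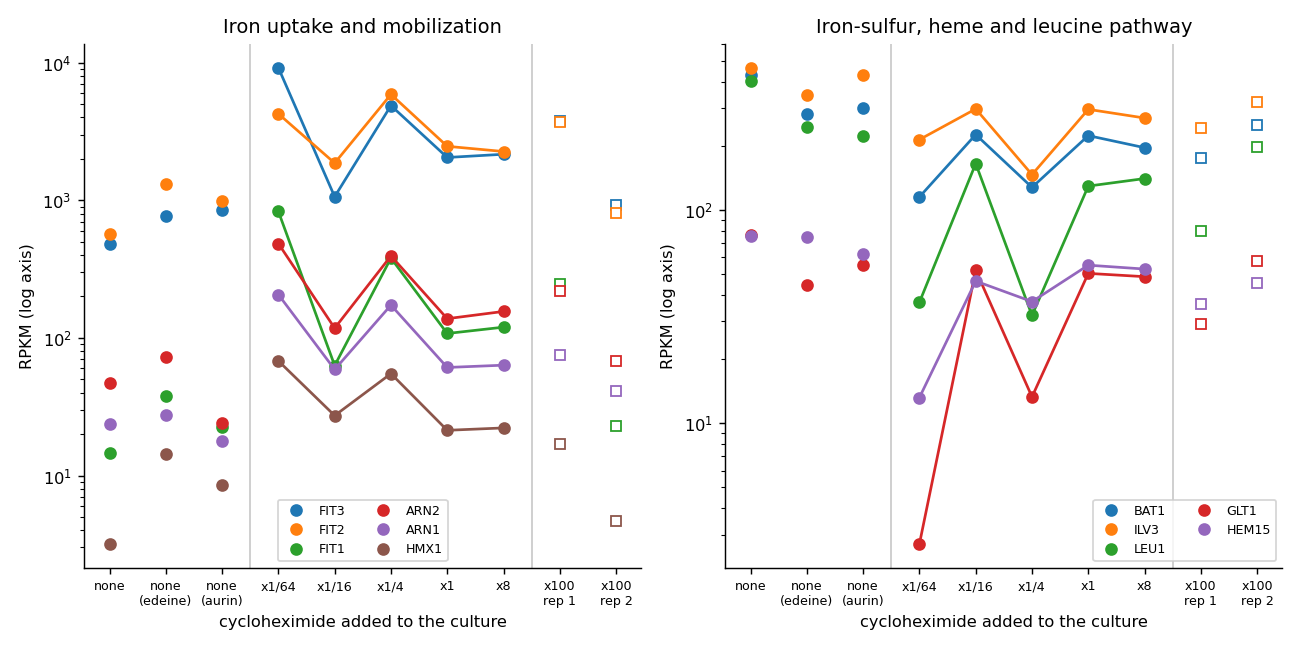
RPKM on a log axis of 6 iron uptake or mobilization genes (left) and 5 genes of iron-sulfur, heme and branched-chain amino acid metabolism (right) in each unstressed library. Filled circles are the drug-free libraries and, joined by lines, the doses x1/64 to x8, and open squares are the x100 replicates. The libraries x1/64 and x1/4 are high on the left and low on the right, and FIT1 is 248 and 23.0 RPKM in the x100 replicates.

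Enzymes that use iron varied the other way. Among 25 tested genes for iron-sulfur and heme enzymes, also listed after their values were seen, 6 had all treated values below all controls. None had them above, where 4.23% of all genes lay below and 2.91% above. The median was -0.45 as deposited and -0.53 after centring, or -0.43 without x1/64. LEU1, the iron-sulfur isomerase of leucine synthesis, had 402, 245 and 222 RPKM without drug and 36.9, 165, 32.0, 129 and 140.4 RPKM with it. All treated values were below all controls, and x1/64 and x1/4 were again the extremes (difference -1.76 ± 0.55, log2, SE; limma adjusted p = 0.34). BAT1, the mitochondrial branched-chain transaminase, is not on the iron-sulfur and heme list but shares the leucine pathway. It had 430.4, 281 and 302 RPKM against 115, 226, 128, 223 and 196 RPKM. ILV3, an iron-sulfur dehydratase of the same pathway, had 464, 345 and 431 RPKM against 214, 298, 147, 296 and 269.9 RPKM. These 2 enzymes likewise had their lowest treated values at x1/64 and x1/4. HEM15, the ferrochelatase that inserts iron into heme, had 75.6, 74.4 and 62.3 RPKM against 13.2, 46.4, 37.2, 55.1 and 52.8 RPKM. In the x100 replicates the list median was -0.43 and -0.13, and LEU1 had 80.0 and 198 RPKM. Of the 11 genes of branched-chain amino acid synthesis, among them LEU1, BAT1 and ILV3, 4 lay below all controls. They too were listed after their values were seen, and their median was -0.47 as deposited and -0.56 after centring.

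Amino acid synthesis lay below the controls in part. Of 46 tested lines, 12 had all treated values below all controls and 1 had them above, against 4.23% and 2.91% of all genes, with a median of -0.26 as deposited and -0.35 after centring. Besides LEU1, BAT1 and ILV3 the largest difference was that of GLN1, glutamine synthetase, with 799, 499.6 and 605 RPKM against 255, 389, 383, 461 and 441 RPKM (difference -0.72 ± 0.22, log2, SE; limma adjusted p = 0.34). The centred list median was -0.12 to 0.18 in the controls and -0.55 to -0.12 in the treated libraries, where x1/16 was lowest and x1 highest. The groups overlapped, since x1 (-0.118) was above the aurintricarboxylic acid control (-0.123).

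Ribosomal protein genes lay slightly below the controls. Of 56 lines of large-subunit ribosomal proteins 12, and of 41 of the small subunit 5, had all treated values below all controls and none above, where 4.23% of all genes lay below, with medians of -0.23 and -0.21 as deposited and -0.32 and -0.30 after centring. None was called. The centred medians of the large subunit ran from -0.07 to 0.12 in the controls and from -0.42 to -0.17 with the drug, so the lists did not overlap between groups. In the x100 replicates they were -0.01 and 0.03. RPL33A, for instance, had 2085, 2246 and 2107 RPKM without drug and 861, 1603, 1742, 1772 and 1376 RPKM with it (difference -0.59 ± 0.23, log2, SE; limma adjusted p = 0.392).

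Factors that act with the ribosome were apart from the controls in 1 of 4 lists, that of the chaperones of the nascent chain. Of its 8 lines 4 lay wholly below the controls, against 4.23% of all genes, with a centred median of -0.50. EGD2, a subunit of the nascent polypeptide-associated complex, had 1658, 2032 and 2078 RPKM against 926, 1357, 1262, 1424 and 1348 RPKM. Of 7 elongation factor lines 2 did so, and the joined line HYP2/ANB1, which counts the paralogs of eIF5A together, had 2663, 3210 and 3175 RPKM against 1595, 2070, 1637, 2003 and 2355 RPKM. Of 27 initiation factor lines 6 lay below, with a centred median of -0.26, among them CDC33, the cap-binding protein eIF4E, with 731 to 809 RPKM against 570.5 to 602 RPKM. Of 19 cytosolic aminoacyl-tRNA synthetases 4 lay below, with a centred median of -0.24. By library, the centred medians of elongation factors (-0.07) and initiation factors (-0.08) at x1/64 were above those of the aurintricarboxylic acid control (-0.12 and -0.14). Those of the synthetases at x1/64, x1 and x8 (-0.16, -0.11 and -0.04) were above its -0.19, so these 3 lists overlapped between the groups. No line of the 4 lists lay wholly above the controls or was called.

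Ribosome biogenesis differed among the treated libraries. Of its 86 genes 7 lay below all controls and none above, against 4.23% and 2.91% of all genes. The median was -0.16 as deposited and -0.25 after centring, or -0.36 without x1/64. By library the centred median was 0.21, 0.07 and -0.26 in the 3 controls, 0.18 at x1/64 and -0.48, -0.48, -0.22 and -0.25 from x1/16 to x8. The aurintricarboxylic acid control was therefore as low as x1 and x8, and x1/64 was as high as the other controls. The 8 genes of RNA polymerase I had a similar pattern, with 0.12 at x1/64 and -0.41 to -0.17 at the other doses. In the x100 replicates the biogenesis median was 0.35 and 0.43.

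Cell wall proteins also lay below the controls in part. SED1 had 649, 673 and 644 RPKM without drug, a narrow range, and 107, 378, 300.3, 396 and 362 RPKM with it. The groups were far apart, the difference was -1.22 ± 0.38 (log2, SE; limma adjusted p = 0.34), and within primer set 1 after centring it was -0.99 ± 0.16 (adjusted p = 0.0369). CWP2, another abundant wall mannoprotein, had 1890.2, 2143 and 1608 RPKM against 259, 1207, 752, 1459 and 1198 RPKM. Of 20 tested wall genes 7 lay below all controls, against 4.23% of all genes, and none above, and the median was -0.24 as deposited and -0.33 after centring. TIR1, an anaerobic wall mannoprotein, had 81.6, 59.6 and 112 RPKM against 383, 72.02, 231, 103 and 136 RPKM, and its groups overlapped. At x100 SED1 had 268 and 373 RPKM, below every control, whereas CWP2 had 1165 and 2693 RPKM.

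General stress and heat shock genes did not separate the groups. The 12 tested general stress genes had a median difference of 0.61 as deposited and 0.52 after centring, or 0.75 without x1/64. Even so, none lay wholly above the controls, against 2.91% of all genes. The centred medians ran from -0.43 to 0.59 in the controls, where the aurintricarboxylic acid library was highest, and were -0.39, 0.59, 1.13, 0.49 and 0.79 from x1/64 to x8. HSP12, a small membrane-associated stress protein, had 15.4, 29.0 and 70.2 RPKM without drug and 15.0, 83.3, 172, 49.3 and 71.6 RPKM with it. The 7 heat shock genes had a median of 0.53 as deposited and 0.44 after centring, or 0.55 without x1/64, and overlapped the controls in the same way. The peroxide response list did separate them, with centred medians of -0.04, -0.03 and 0.06 in the controls and -0.90, -0.65, -0.40, -0.22 and -0.22 from x1/64 to x8. Of its 8 genes 3 lay below all controls and none above, against 4.23% and 2.91% of all genes. The list medians were -0.36 as deposited and -0.45 after centring. AHP1, a thioredoxin peroxidase and 1 of the 3, had 6362 to 8942 RPKM without drug against 2625 to 6004 RPKM.

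Further lists had at most 3 members clear of the controls, where 4.23% of all genes lay below them and 2.91% above. Of 15 glycolysis lines 1 lay below the controls and the median was -0.28 as deposited and -0.37 after centring, with the lowest library at x1/16 (-0.81). Of 34 proteasome genes 1 lay below and of 71 mitochondrial ribosomal proteins 3 lay above, with centred medians of -0.19 and 0.10. Without x1/64 the median of the mitochondrial ribosomal proteins was 0.20. Of 33 genes of the respiratory chain and ATP synthase 1 lay below, and their centred median of -0.51 became -0.27 without x1/64. Of 22 ergosterol genes 2 lay below, with a centred median of -0.12. Histones, cyclins, amino acid permeases, hexose transporters and mRNA decay factors had no member clear of the controls, with centred medians between -0.20 and 0.04. The 4 tested genes of mating type a had centred list medians of -0.43 to 0.47 in the controls and -1.27 to -0.13 with the drug.

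Genes with known upstream reading frames, which are the setting in which scanning ribosomes are held back, were examined because treated libraries carry more footprints at start codons. None of the 16 tested had its groups apart, where 2.91% of all genes lay above the controls and 4.23% below. The median was 0.08 as deposited and -0.01 after centring. GCN4, the activator of amino acid synthesis genes and the best known example, had 31.7, 38.4 and 43.8 RPKM in its main frame without drug. It had 140.0 RPKM at x1/64 (95% Poisson interval 122 to 160, counting error only), and 41.4, 56.8, 46.0 and 36.4 RPKM at the higher doses. The levels at x1/64, x1/4 and x1 exceeded every control, x1/64 by the widest margin, and those at x1/16 and x8 did not. The difference was 0.56 ± 0.38 (log2, SE; limma adjusted p = 0.579). At x100 both replicates were at 112 and 113 RPKM.

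**Figure D4:**
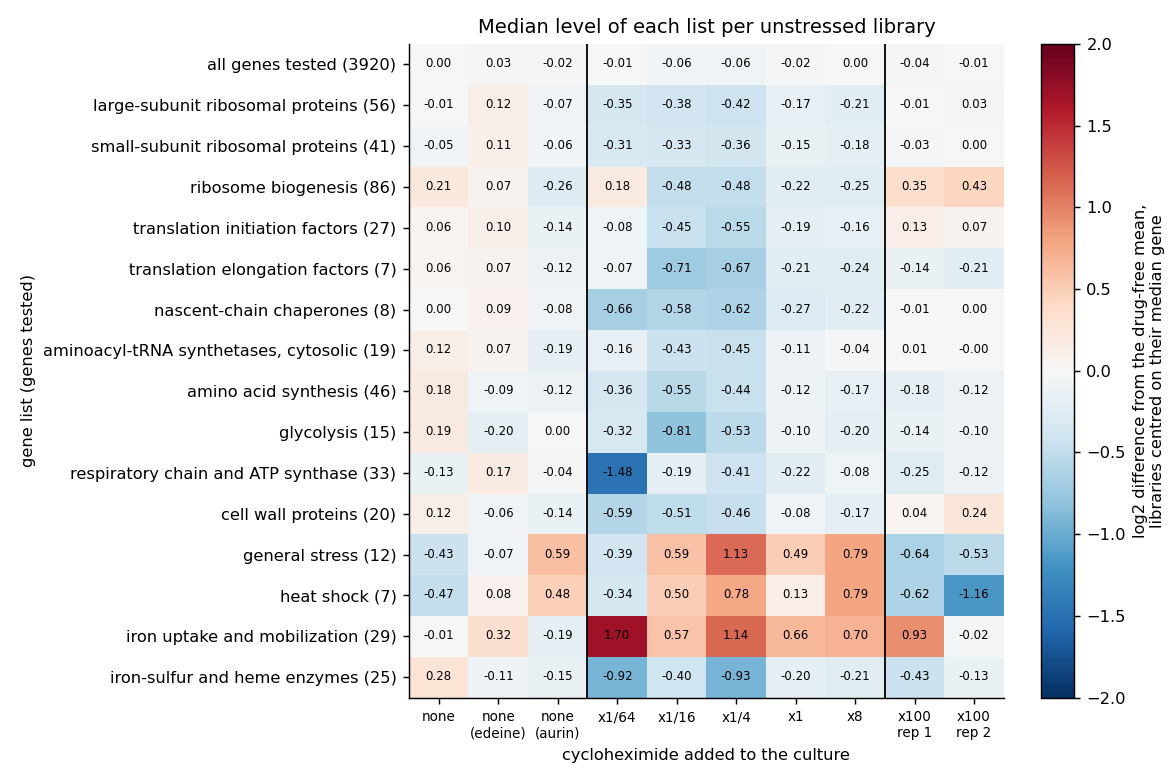
Median log2 level of each gene list per unstressed library, relative to the drug-free mean and after centring of the libraries. Columns are single libraries, with the drug-free, x1/64 to x8 and x100 libraries set apart by lines, and numbers in brackets are the genes tested. The iron uptake list reaches 1.70 at x1/64 and is 0.93 and -0.02 in the x100 replicates.

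Gene length was examined because the broad peak occupies a larger part of a short frame. The median log2 level of genes of at most 717 nt minus that of genes of at least 1794 nt was 1.23, 1.36 and 1.68 in the controls and 1.10, 1.48, 1.57, 1.29 and 1.31 from x1/64 to x8. The ranges overlapped, and the groups differed by -0.08 (exact two-sided permutation test, p = 0.607). Without the aurintricarboxylic acid library the difference was 0.05. The RPKM steps fit a frame shortened by 100 nt for every gene, and which end the authors left out is not given in the sources used here.

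No gene was called for a trend with the dose. With the logarithm of the dose as a trend over the 5 treated libraries, 0 of 3920 genes were called (0%, limma, smallest adjusted p 0.491), and 391 had an unadjusted p under 0.05. After centring the numbers were 0 and 497. Values that peak at intermediate doses, as those of PDR5 and HSP12 do at x1/4, are not described by a trend.

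The x1/64 library was then set against the other 4 doses. A single library stands on one side, so the test assumes that it varies like the others, and its primer set and its depth changed together with the dose. Of 3920 genes 167 were higher at x1/64 (4.26%) and 487 lower (12.4%), and after centring 365 were higher and 408 lower, so the balance of directions depends on the scaling. In both scalings 167 were higher and 375 lower. The x1/64 library also went with the other doses against the controls in only part of the genes. Of 370 genes whose 4 higher doses all lay above all controls as deposited, x1/64 did too in 191 (51.6%), lay among the controls in 89 and below them all in 90. Of 296 genes below the controls at the higher doses, x1/64 agreed in 197 (66.6%), lay among them in 47 and above in 52. After centring the shares were 53.9% of 258 and 57.7% of 497. These genes were chosen on the same controls that x1/64 is set against, which alone can raise the shares. How often x1/64 lay clear of the controls over all genes was not determined, so the shares give no measure of agreement.

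The 5 largest differences above the other doses were those of HES1, FRE2, FIT1, PBI1 and YDR524C-B. FRE2 (limma adjusted p = 0.0363) and FIT1 (adjusted p = 0.0443) passed narrowly. FRE2 was no longer called with a pseudocount of 0.1 (0.0532) or without x1/16 (0.0645), x8 (0.0595) or the edeine control (0.0523). FIT1 was no longer called without x1/16 (0.0626), x1 (0.0737), x8 (0.0711), the edeine control (0.0541) or the aurintricarboxylic acid control (0.0597). Their adjusted p over all alternatives ran from 0.00105 to 0.0645 and from 0.00487 to 0.0737. HES1, an oxysterol-binding protein homolog, had 69.1 RPKM at x1/64 (169 reads, 95% Poisson interval 59.1 to 80.3 RPKM) and 3.84, 10.4, 5.145 and 4.78 RPKM at the higher doses. In the controls it had 2.35, 1.96 and 3.59 RPKM, so x1/64 exceeded all 7 other libraries. The difference was 3.40 on the log2 scale (limma adjusted p = 0.00145). PBI1 had 47.4 RPKM at x1/64 and 4.26 to 15.4 RPKM at the other doses (adjusted p = 0.0149). YDR524C-B had 9986 RPKM at x1/64 against 1128 to 2680 RPKM at the other doses, and the controls had 2943 to 7592 RPKM.

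The 5 largest differences below the other doses were those of CIS1, COA2, GLT1, PDR15 and INH1. CIS1, a Pdr3-controlled protein of the response to blocked mitochondrial import, was listed at 0 at x1/64, where 3 reads would be 7.17 RPKM, and at 63.3, 115, 47.4 and 43.4 RPKM at the other doses. Their mean was at least 9.39-fold higher than that floor. COA2, an assembly factor of cytochrome oxidase, was also listed at 0, against 12.3 to 50.9 RPKM, whose mean was at least 2.02-fold above its floor of 13.8 RPKM. GLT1, the iron-sulfur enzyme glutamate synthase, had 2.72 RPKM at x1/64 (35 reads) and 13.3 RPKM at x1/4, against 48.7 to 52.2 RPKM at the other doses and 44.5 to 76.2 RPKM in the controls. Its lowest treated values, like those of LEU1, were at x1/64 and x1/4. INH1, an inhibitor of the mitochondrial ATPase, had 1 read at x1/64, which is 3.12 RPKM with a 95% Poisson interval of 0.0789 to 17.4, against 20.04 to 50.7 RPKM.

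Gene groups at x1/64 were as follows. Of 33 genes of the respiratory chain and ATP synthase 21 were lower than at the other doses and none higher, against 12.4% and 4.26% of all genes, with a median of -1.34 as deposited and -1.21 after centring. COX7, a subunit of cytochrome oxidase, had 11.9 RPKM at x1/64 and 96.4 to 116 RPKM at the other doses, and QCR8 of complex III had 26.6 RPKM and 152 to 243 RPKM. Of 71 mitochondrial ribosomal proteins 17 were lower and none higher. General stress genes were lower in 6 of 12, cell wall genes in 10 of 20 and drug target and resistance genes in 4 of 9, namely PDR15, PDR5, RPL28 and SNQ2. Ribosome biogenesis genes were higher in 19 of 86 and lower in none, with RRP36, MPP10 and EBP2 leading at 118, 137 and 368 RPKM against at most 46.3, 51.7 and 139 RPKM. Among large-subunit proteins 15 of 56 were lower and 5 higher, the latter including RPP1A, RPP1B and RPP2B, acidic proteins of the ribosomal stalk, which had 5408, 4646 and 6677 RPKM at x1/64 against at most 2279, 1607 and 2249 RPKM. The shortest 393 genes had a centred median of -0.29 at x1/64 relative to the other doses, and the longest 384 had 0.05.

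Libraries from peroxide-treated cells, which the fits above did not use, give a related contrast over fewer doses with the primer set held constant. There the x1/64, x1 and x8 libraries were all made with primer set 2, from cells given 0.2 mM hydrogen peroxide for 30 min. Of the 167 genes higher at x1/64 in unstressed cells, 143 (85.6%) were also higher at x1/64 than at the mean of x1 and x8 under peroxide, against 49.9% of all 3920 genes, with a median of 0.56 (log2, centred). Of the 375 genes lower at x1/64, 330 (88.0%) were lower there too, against 50.1% of all genes, with a median of -0.53. Set against the other 4 peroxide doses, which include both primer sets, the shares were 87.4% and 87.2%. Those of all genes were then 53.3% and 46.7%. Among the 10 genes named above 9 kept their direction against x1 and x8. GLT1, with 6.29 RPKM at x1/64 and 4.39 and 3.14 RPKM at x1 and x8, did not. HES1 had 13.99 RPKM against 0.709 and 3.30 RPKM, and PDR15 had 32.4 RPKM against 74.9 and 90.4 RPKM. The 2 conditions share no library. The x1/64 library under peroxide was again the shallowest of its dose series, at 2.43 M reads, and the part of depth was not tested.

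**Figure D5:**
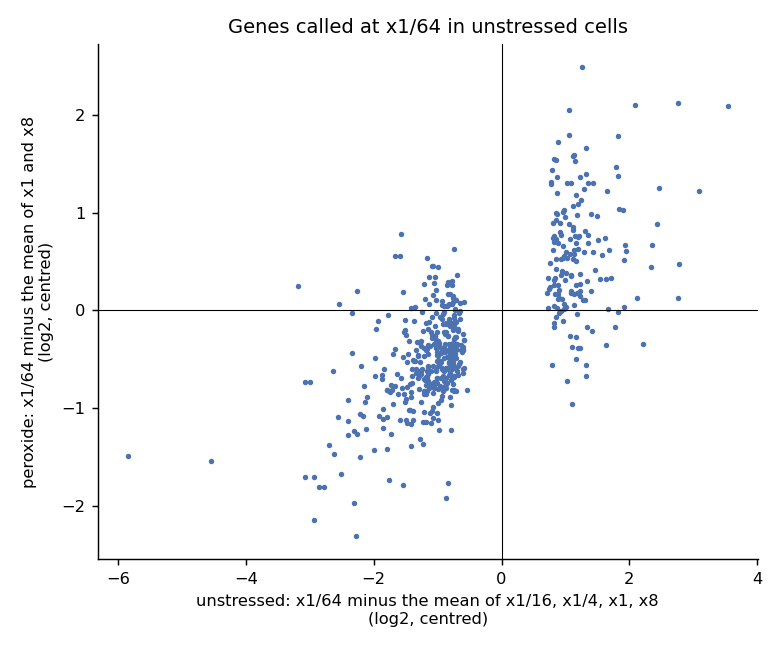
Each point is 1 of the 542 genes called in both scalings at x1/64 in unstressed cells. The x axis is x1/64 minus the mean of the other 4 doses without stress and the y axis x1/64 minus the mean of x1 and x8 under peroxide, all primer set 2, both as centred log2 differences. Most points lie in the lower left (330 of 375) and upper right (143 of 167) quadrants.

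The effect of the drug was finally compared between unstressed and peroxide-treated cells, with 5 treated libraries and 1 drug-free library for the latter. The interaction was called for 0 of 4344 genes (0%, limma, smallest adjusted p 0.223), and 166 had an unadjusted p under 0.05. With primer set as a term 8 genes were called. The iron uptake genes FIT1, FIT2, FIT3, ARN2, HMX1 and FRE1 were among them, together with PRM4 and SDH4. FIT1 had 441 RPKM in the drug-free peroxide library, more than any of the 5 treated ones (250.8, 6.62, 14.4, 89.3 and 215 RPKM), whereas without stress it was lowest in the drug-free libraries. The peroxide side of this comparison rests on 1 drug-free library.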

How the data were processed

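The authors deposited RPKM per gene and library and average occupancy profiles per nucleotide (a coverage signal divided by its mean over the last 300 nt). They aligned footprints with Bowtie 0.12.7 to the S288C genome. The RPKM table holds 5564 lines. Several locus tags are joined in 116 and 5448 have a single one, of which 5446 were found in RefSeq (assembly R64, used for names, lengths and neighbours). Depth was recovered from RPKM steps, with 95.9 to 98.5% of low values within 0.1 of a whole read, and found for 4 of 4 libraries in simulated data. Genes that averaged 10 RPKM or more were fitted with limma 3.58.1 (R 4.3.3) on log2(RPKM + 1), two-sided, Benjamini-Hochberg threshold 0.05. The main fits, though not their alternatives, were tested on simulated data. Per-library measures were compared by exact permutation (scipy 1.17.1). Genes named were to be the 12 largest in each direction past the threshold in both scalings with groups apart, 5 for the other comparisons, list members in order of difference, and GCN4. Alternatives were pseudocounts 0.1 and 10, no filter or 30 RPKM, centring, a mean-dependent prior variance, primer set as a term or held constant, 1 control, library weights, other windows and length classes, and each library left out. Members, lists and tests were chosen with earlier results of these data known, and the iron, iron-sulfur and branched-chain lists after seeing the values. P-values measure the spread between single libraries.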

Additional observations from a re-analysis of the deposited data

Results flagged for a closer look

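In 18 of the 43 genes checked, which are those given above with levels by library under a single locus tag, the x1/64 library lay far from the other 4 treated libraries on the log2(RPKM + 1) scale, its gap to the nearest of them taking most of the range of the 5. The limit for 5 samples is 0.710. The x1/64 value was the lowest in 12, where that share of the range was 0.797 for CIS1, 0.833 for PDR15, 0.867 for YCL042W, 0.841 for PDR5, 0.889 for SNQ2, 0.800 for RPL28, 0.788 for SED1, 0.720 for HEM15, 0.720 for EGD2, 0.750 for AHP1, 0.917 for COX7 and 0.786 for QCR8. It was the highest in 6, with 0.711 for RRP36, 0.844 for MPP10, 0.843 for EBP2, 0.763 for RPP1A, 0.731 for RPP1B and 0.776 for RPP2B. Several of these genes were named for their difference at x1/64, so the count describes them only. Chance alone passes this limit in about 1 in 20 groups. Over all 3920 genes tested, x1/64 was the distant library in 460 (11.7%), and each of the other 4 doses in 11 to 24.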

How the results depend on the processing

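The count of genes called in drug against drug-free was 0 with centring, with pseudocounts of 0.1 and 10, with a filter at 30 RPKM and with a prior variance that follows the mean. It was 2 without a filter (GTO3 and YHL042W, both higher), 1 with primer set as a term or within primer set 1 (YCL042W), and 1 with only the untreated-lysate control (ADE17, lower, which had 476 RPKM in that library and 75.5 to 95.5 RPKM in the other 7). A further 3 settings were added after seeing the data: primer set 1 with centring gave 12, library weights 3, and weights with centring 10. Leaving out 1 library gave 0 to 1 calls for the drug, 0 to 0 for the trend, 409 to 799 for x1/64 and 0 to 1 for the interaction, where the one gene without the edeine library was FRE1. The x1/64 count fell to 423 without x1/16 and 409 without x8. The interaction gave 8 calls with primer set as a term.

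Leaving out 1 library kept the start-codon peak difference at 1.86 to 2.01 and the broad peak at 0.57 to 0.79, with exact permutation p of 0.0571 or 0.0952, the smallest that these smaller designs can give. The difference of short and long genes ranged from -0.17 to 0.05 and turned positive, at 0.0524, without the aurintricarboxylic acid library. RPL28 lay between -0.2518 and 0.0484 with 1 library left out, and changed sign to 0.0484 without x1/64 or with primer set as a term, to 0.0680 with only the untreated-lysate control, and to 0.0345 with library weights. The cause was not tested. No paired analysis was possible because only the x100 libraries carry replicate numbers. At 2.03 M reads, short genes of low level at x1/64 rest on few reads.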
